A study of Mus musculus with 14 samples.

Results

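The vessel content of Notch1+ cells from developing mouse retinas was read through 10 marker genes of endothelial cells, the cells that line blood vessels: Pecam1, Cdh5, Esam, Cldn5, Emcn, Kdr, Flt1, Tie1, Tek and Eng. These genes were chosen by name, and every mouse probe whose transcript identifier mapped to one of them was taken, which gave 14 of 34312 mouse probes, for 10 of the 16160 genes that could be named. Retinas came from C57BL/6 mice, either embryos at day 14 of gestation (E14) or pups on the day of birth (P0). The groups were E14 Notch1+ cells (3 arrays), E14 Retina (3 arrays), P0 Notch1+ cells (4 arrays) and P0 Retina (4 arrays), and no group carried a mutation or a treatment. Notch1+ cells had been pulled from papain-dissociated retinas with a biotinylated antibody against Notch1 and magnetic beads, and between 200000 and 500000 cells went into a sample. Retina samples were whole retinas of the same stage. The antibody selects any cell with Notch1 on its surface, so the isolated fraction is defined by 1 receptor and not by a lineage.

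Endothelial cells are held together by adherens and tight junctions, respond to VEGF and angiopoietin through receptor tyrosine kinases, and lie on a basement membrane shared with pericytes. In the mouse eye, hyaloid vessels supply the interior before birth, and the retina's own vessels spread from the optic nerve head from about birth on. Notch1 is carried by retinal progenitors and also by endothelial cells, where Notch signalling sets the balance between sprouting and trailing cells.

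Stretches of 250 bases just before transcript starts, taken from RefSeq (GRCm38.p6, gene strand, 5′ to 3′), are shown for markers with different patterns described here: Emcn, which followed single arrays, Tie1, which was above background only on P0 Notch1+ arrays, and Cldn5, which followed the stage. Capitals mark GGAA, the core of ETS factor sites, or its reverse complement TTCC. Emcn lies at chr3:137340828-137341077 on the + strand, Tie1 at chr4:118489850-118490099 on the - strand and Cldn5 at chr16:18776597-18776846 on the + strand.
Emcn: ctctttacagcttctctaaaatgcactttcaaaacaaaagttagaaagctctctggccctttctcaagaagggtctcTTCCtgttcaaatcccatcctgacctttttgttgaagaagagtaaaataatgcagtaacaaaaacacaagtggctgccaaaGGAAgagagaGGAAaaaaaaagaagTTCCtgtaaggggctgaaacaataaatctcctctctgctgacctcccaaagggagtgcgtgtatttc
Tie1: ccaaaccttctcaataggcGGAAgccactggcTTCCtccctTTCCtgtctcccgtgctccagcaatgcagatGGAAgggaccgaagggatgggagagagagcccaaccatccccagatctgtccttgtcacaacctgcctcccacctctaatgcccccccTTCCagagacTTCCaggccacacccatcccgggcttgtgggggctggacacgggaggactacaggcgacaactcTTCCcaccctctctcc
Cldn5: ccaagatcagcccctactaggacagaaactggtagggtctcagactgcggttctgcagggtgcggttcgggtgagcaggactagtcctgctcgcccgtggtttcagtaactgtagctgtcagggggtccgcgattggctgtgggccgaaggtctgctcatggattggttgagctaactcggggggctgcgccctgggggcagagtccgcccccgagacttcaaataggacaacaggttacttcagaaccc
The word occurred 4 times before Emcn, 7 times before Tie1 and 0 times before Cldn5, on either strand. Of all 32851 RefSeq promoter windows of this length, 93.4% held it at least once, with a median of 3. The longer ETS word CAGGAAG, held by 10.8% of all windows, was found once among the 7 markers with a listed window, before Emcn. The GATA word AGATAA (9.99% of all windows) and the hypoxia response core ACGTG (16.6%) occurred in 0 of these 7 windows on either strand. These matches describe the letters only.

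All values are normalized probe intensities on a linear scale unless called log2. A probe counted as above background on an array when its median exceeded the local background median by over 2 background SDs, and a probe was tested when it did so on at least 3 of 14 arrays, which 13683 probes did. The share of mouse probes above background was 27.2% to 31.2% on Notch1+ arrays and 30.9% to 39.5% on Retina arrays. Notch1 served as a check of the labels. It read 21070, 31869 and 23910 in E14 Notch1+ cells, against 11354, 7375 and 8681 in E14 Retina (log2 fold change 1.49, SE 0.33, adjusted p = 0.0174, limma), and 50999, 16413, 28473 and 36611 in P0 Notch1+ cells, against 9718, 12698, 12126 and 12296 in P0 Retina (1.39, SE 0.29, adjusted p = 0.00422). No array overlapped with the other group of its stage. All 6 E14 arrays were scanned on 1 day, and P0 Notch1+ arrays and P0 Retina arrays on 1 other day each, so the scan day cannot be told apart from the groups at P0 or from the stages. In bulk samples, fewer cells of a type and less RNA per cell cannot be told apart either.

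The markers were sparse. Above background, 7, 2 and 6 of the 10 genes were found on E14 Notch1+ arrays 1, 2 and 3, against 2 on each of the 3 E14 Retina arrays. At P0, 7, 9, 4 and 3 genes were above background on Notch1+ arrays 1 to 4, against 7, 4, 3 and 3 on Retina arrays 1 to 4. Tek, the angiopoietin receptor Tie2, was above background on 0 of 14 arrays, and Eng, a TGF-beta co-receptor, on 2, so 8 of 10 genes were tested.

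**Figure D1:**
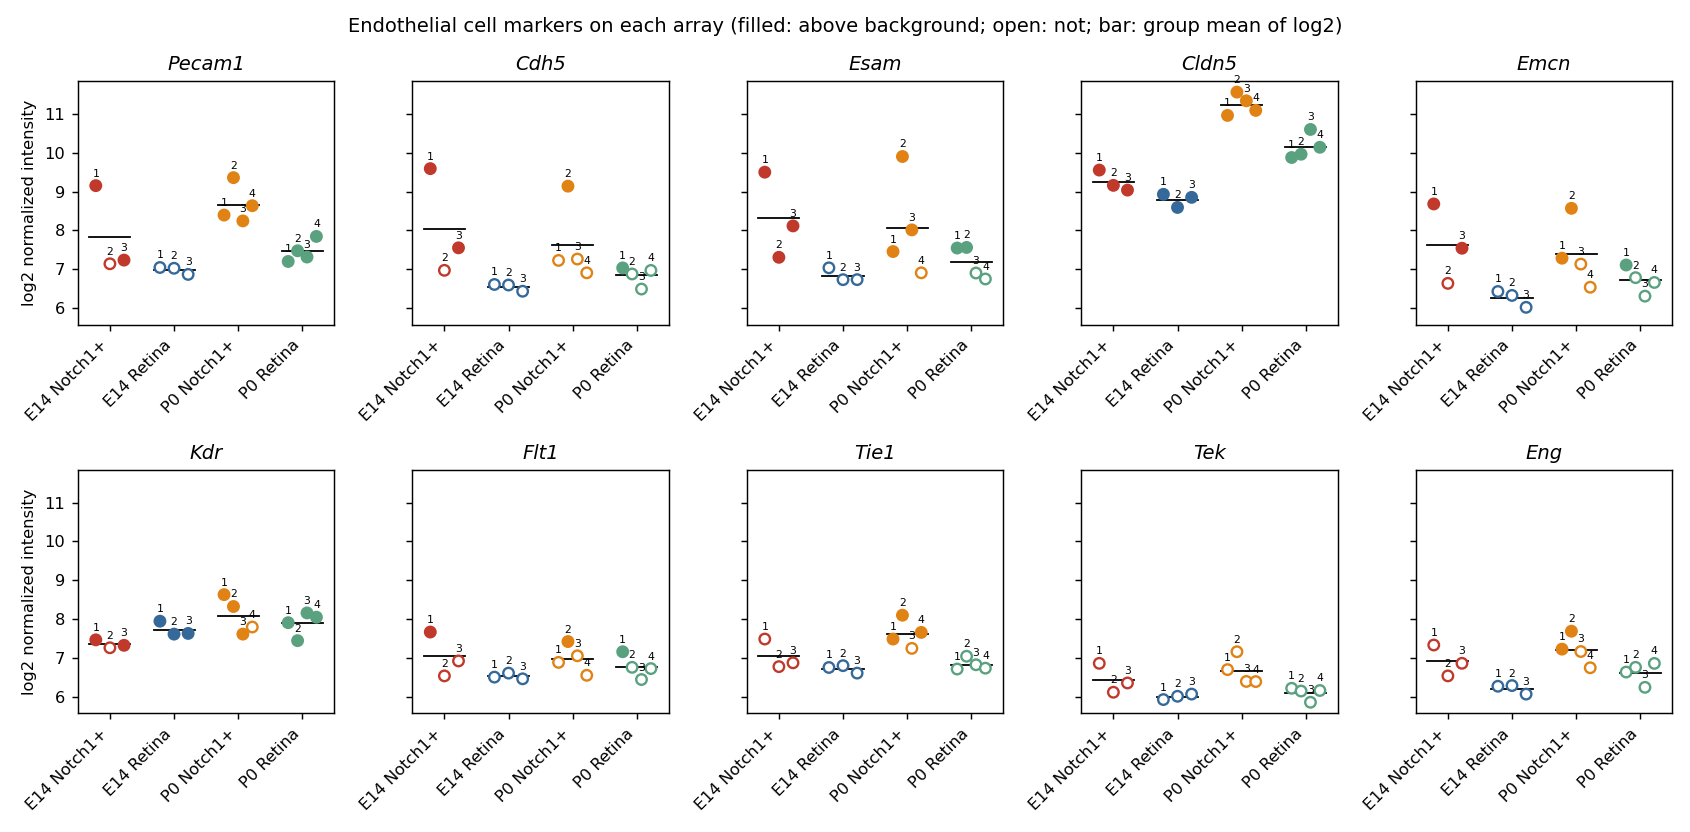
Log2 normalized intensity (y axis) of the representative probe of each of the 10 markers on each array, by group (x axis), with the replicate number above each point. Filled points are above background, open points are not, and black bars are group means of log2 values. E14 Notch1+ replicate 1 was the highest E14 Notch1+ array for 10 of 10 genes, of which Tek, Tie1 and Eng had only open points in that group.

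At E14, 0 of the 8 tested markers passed the test with a higher level in Notch1+ cells, and 0 with a lower one, compared with whole retina (limma, Benjamini-Hochberg adjusted p under 0.05). At an unadjusted p under 0.05 limma gave 3 higher (Cdh5, Emcn and Esam) and 0 lower. The share of all probes at an unadjusted limma p is not given here. The methods' t-test at an unadjusted p under 0.05 gave 0 markers higher and 1 lower (Kdr). By that t-test 1099 of all 13683 tested probes were higher and 1266 lower. At the adjusted threshold of limma, 2.67% of all tested probes were called higher and 3.24% lower in this comparison. At P0, 3 of 8 were called higher in Notch1+ cells, against 8.97% of all tested probes, and 0 lower (0 also at an unadjusted p), against 10.7%. The 3 were Pecam1, Tie1 and Cldn5. Tie1 reached the test through P0 Notch1+ arrays alone, so its entry was tied to the group in which it was high. The median log2 fold change of the 8 markers, Notch1+ over Retina, was 0.69 at E14 and 0.79 at P0, beside 0.01 at both stages over all tested probes. These medians rested largely on 1 array each: the E14 median was 0.31 without E14 Notch1+ replicate 1 (7 markers then tested), and the P0 median 0.28 without P0 Notch1+ replicate 2 (6 markers then tested). In limma's test of a difference between the E14 and P0 effects 0 of the 8 passed, 0 of them also at an unadjusted p under 0.05, and 1.52% of all probes were called higher and 0.95% lower.

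Pecam1 (CD31, probe mMC005668, chromosome 11), an adhesion molecule at contacts between endothelial cells, read 569, 141 and 151 in E14 Notch1+ cells, against 132, 130 and 117 in E14 Retina. The groups did not overlap, but 1 array stood far above the other two, and no E14 Retina array was above background. The log2 difference was 0.86 (SE 0.44, adjusted p = 0.312, limma). As a bound, the E14 Notch1+ mean was at least 1.71-fold higher than the background limit of the E14 Retina arrays.
Bounds of this kind set the dim group, on each array, at the lowest intensity that was above background there. Where the probe's own value was higher, that value was used. The mean log2 value of the brighter group was taken as it was, with arrays below background included and without its sampling error. A bound is therefore an estimate and no guaranteed minimum. In P0 Notch1+ cells Pecam1 read 337, 657, 303 and 398, against 147, 178, 159 and 230 in P0 Retina, and all 8 arrays were above background. Every P0 Notch1+ array was higher than every P0 Retina array, and Pecam1 was called (log2 1.20, SE 0.38, adjusted p = 0.04). This call sat near the threshold: adjusted p was 0.106 without P0 Notch1+ replicate 2 (log2 0.98) and 0.132 with each array scaled to 1 median (log2 0.76). A second Pecam1 probe, mMR029426, was above background on 3 arrays and read 233, 80.3 and 137 in E14 Notch1+ cells, against 76.2, 72.9 and 75.3 in E14 Retina. At P0 it read 147, 678, 122 and 105 in Notch1+ cells, against 114, 105, 87.1 and 102 in Retina. This probe was not called (P0 log2 0.89, SE 0.48, adjusted p = 0.215), and P0 Notch1+ replicate 2 stood alone.

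Cdh5 (VE-cadherin, probe mMC003647, chromosome 8) builds the adherens junctions of endothelium. It read 771, 126 and 188 in E14 Notch1+ cells, against 97.6, 96.7 and 86.5 in E14 Retina. In P0 Notch1+ cells it read 150, 564, 154 and 120, against 131, 118, 89.96 and 125 in P0 Retina.
One array in each Notch1+ group carried most of the signal, and the other P0 Notch1+ arrays lay within or close to the range of P0 Retina. Cdh5 was not called at E14 (log2 1.49, SE 0.60, adjusted p = 0.189, at least 1.96-fold higher as a bound) or at P0 (0.79, SE 0.52, adjusted p = 0.319).

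Esam (probe mMC012554, chromosome 9), an immunoglobulin-type adhesion molecule of endothelial tight junctions and platelets, read 724, 158 and 278 in E14 Notch1+ cells, all above background, against 131, 106 and 106 in E14 Retina, none above background. The difference was at least 2.36-fold as a bound (log2 1.47, SE 0.65, adjusted p = 0.228, limma), with 1 array far above the others. With each array left out in turn, the log2 difference went down to 0.88. In P0 Notch1+ cells it read 176, 958, 258 and 120, against 187, 189, 120 and 108 in P0 Retina. Those groups overlapped (0.88, SE 0.56, adjusted p = 0.299), and without P0 Notch1+ replicate 2 the log2 difference was 0.27.

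Emcn (endomucin, probe mMR027638, chromosome 3), a sialomucin of venous and capillary endothelium, read 411, 99.6 and 186 in E14 Notch1+ cells, against 86.2, 80.3 and 64.9 in E14 Retina. It read 156, 380, 140 and 92.9 in P0 Notch1+ cells, against 138, 110, 79.3 and 101 in P0 Retina. The E14 Notch1+ arrays fell in the same order as for Cdh5 and Esam. Neither stage was called (E14 log2 1.36, SE 0.50, adjusted p = 0.142, at least 1.47-fold higher as a bound, and P0 0.67, SE 0.43, adjusted p = 0.309). A second Emcn probe, mMC013889, was above background on 0 arrays.

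Cldn5 (claudin-5, probe mMC018750, chromosome 16), the main tight junction protein of the blood-brain and blood-retina barriers, was above background on all 14 arrays and behaved differently from the other junction genes. It read 752, 572 and 526 in E14 Notch1+ cells, against 488, 386 and 462 in E14 Retina. In P0 Notch1+ cells it read 1993, 3021, 2586 and 2179, against 941, 997, 1552 and 1129 in P0 Retina.
Neither pair of groups overlapped, and the P0 values lay above all E14 values. The Notch1+ over Retina difference was called at P0 (log2 1.09, SE 0.20, adjusted p = 0.00175) and not at E14 (0.46, SE 0.23, adjusted p = 0.299), and the stages' differences were not shown to differ (log2 -0.63, SE 0.30, adjusted p = 0.296). The P0 call remained when any 1 array was left out (adjusted p 0.000735 to 0.00753). Scaling each array to 1 median shifted all tested probes, whose median was then -0.37 in this comparison, and the log2 value of Cldn5 was then 0.31 and was not called (adjusted p = 0.219). Cldn5 was the 1 marker called between stages. It was lower in E14 Notch1+ than in P0 Notch1+ cells (-1.99, SE 0.21, adjusted p = 0.000104), where 5.17% of all probes were called higher and 5.92% lower, and lower in E14 Retina than in P0 Retina (-1.35, SE 0.21, adjusted p = 0.00105), where the shares were 6.61% and 7.67%. Under every alternative run, both stage differences stayed called.

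**Figure D2:**
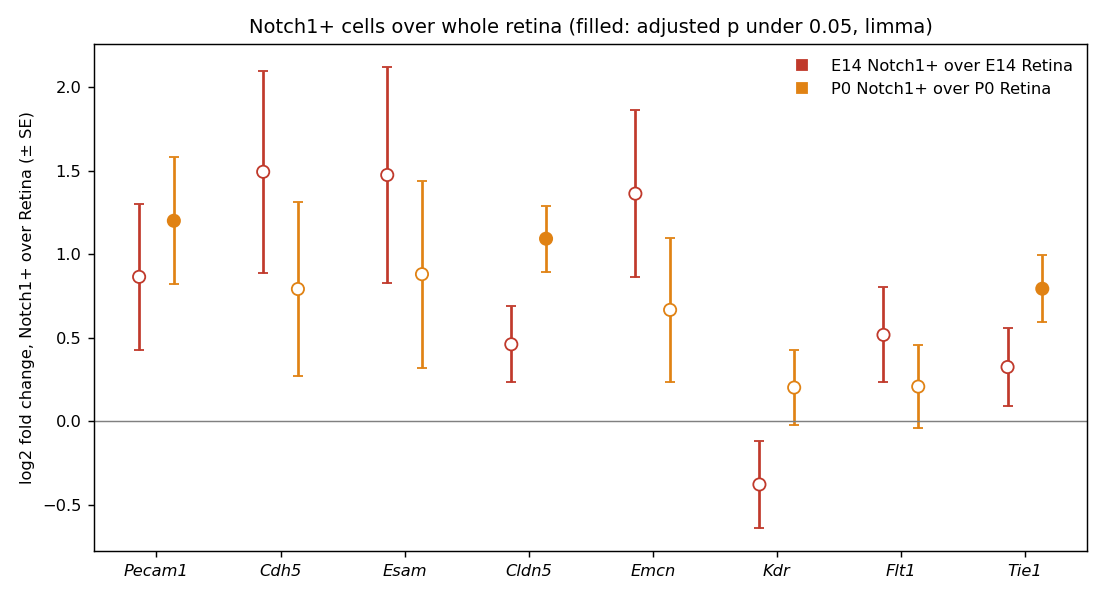
Log2 fold change of Notch1+ cells over whole retina with its standard error (y axis) for the 8 tested markers (x axis), at E14 (red) and P0 (orange). Filled points have an adjusted p under 0.05 in limma: Pecam1, Cldn5 and Tie1, each at P0. The E14 values of Cdh5, Esam and Emcn were larger (1.36 to 1.49) but had standard errors of 0.50 to 0.65.

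The receptors were dimmer. Kdr (VEGFR2, probe mMC003369, chromosome 5), the main signalling receptor for VEGF and a gene also used by neural progenitors of the retina, read 177, 154 and 161 in E14 Notch1+ cells, against 247, 196 and 198 in E14 Retina. All E14 Notch1+ arrays were lower than all E14 Retina arrays, yet the difference was not called (log2 -0.38, SE 0.26, adjusted p = 0.488). In P0 Notch1+ cells Kdr read 397, 321, 196 and 222, against 240, 174, 286 and 265 in P0 Retina, and the groups overlapped (0.20, SE 0.22, adjusted p = 0.578, and -0.22 with each array scaled to 1 median). Kdr was the only tested marker that was not higher in E14 Notch1+ cells on average. Between stages its log2 difference was -0.74 in Notch1+ cells, E14 over P0 (SE 0.24, adjusted p = 0.0674).

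Flt1 (VEGFR1, probe mMC007864, chromosome 5), a VEGF-binding receptor that limits signalling through Kdr, read 203, 93.0 and 121 in E14 Notch1+ cells, against 91.0, 97.7 and 88.3 in E14 Retina. At P0 it read 118, 172, 133 and 94.0 in Notch1+ cells, against 143, 108, 87.1 and 106 in Retina. Single arrays were above background in 3 of the groups, and neither stage was called (E14 log2 0.52, SE 0.28, adjusted p = 0.362, and P0 0.21, SE 0.25, adjusted p = 0.605). A second Flt1 probe, mMA034514, was above background on 0 arrays.

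Tie1 (probe mMC006280, chromosome 4), an orphan receptor that modulates signalling of its relative Tek, read 179, 110 and 117 in E14 Notch1+ cells, against 108, 112 and 97.7 in E14 Retina, with 0 of 6 arrays above background. In P0 Notch1+ cells it read 179, 275, 152 and 202, against 105, 132, 113 and 107 in P0 Retina. The P0 groups did not overlap, 3 of 4 P0 Notch1+ arrays and 0 of 4 P0 Retina arrays were above background, and the gene was called (at least 1.51-fold higher as a bound, log2 0.79, SE 0.20, adjusted p = 0.0142, limma). It was not called by the methods' t-test after Benjamini-Hochberg adjustment (adjusted p = 0.0517). Leaving out P0 Notch1+ replicate 1, 2 or 4 left Tie1 above background on too few arrays to be tested.

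For Tek (probe mMC004388, chromosome 4) only background-level values of 58.1 to 143 were read, so no fold change was formed. Eng (probe mMR030489, chromosome 2) read 150, 206, 144 and 108 in P0 Notch1+ cells, the first 2 of these above background, against 100, 108, 75.8 and 116 in P0 Retina, with a bound of at least 1.14-fold and no test. At E14 it was below background on all 6 arrays, and its second probe, mMC002731, was above background on P0 Notch1+ replicate 2 alone.

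The spread within the Notch1+ groups had a shared pattern. E14 Notch1+ replicate 1 was the highest of its 3 arrays for 10 of 10 markers, while 38.5% of all tested probes were highest on it. On it 4 markers (Pecam1, Cdh5, Emcn and Esam) were over 2-fold above both other arrays, beside 2.02% of all tested probes. Tek, Tie1 and Eng were above background on 0 of these 3 arrays. Counts out of 10 include Tek and Eng, which were not tested, while the shares cover tested probes only. P0 Notch1+ replicate 2 was the highest of its 4 arrays for 9 of 10 markers, with Kdr the exception, while 24.9% of all tested probes were highest on it. Another 3 values on it (Cdh5, Emcn and Esam) were over 2-fold above the other 3 P0 arrays, beside 0.862% of all tested probes. Without Cldn5, the summed intensity of the other 9 markers was 3313, 1044 and 1400 on E14 Notch1+ arrays, against 1031, 962 and 894 on E14 Retina arrays. On P0 Notch1+ arrays it was 1767, 3675, 1565 and 1441, against 1266, 1189, 1069 and 1230 on P0 Retina arrays. Each Notch1+ array was thus above each Retina array of its stage in this sum, and the excess was largest on these 2 arrays. The sum includes values below background, and on E14 Notch1+ replicate 2 only 2 of the 10 markers were above it. The lowest intensity above background was 141 to 147 on E14 Notch1+ arrays and 130 to 137 on E14 Retina arrays. It was 135 to 152 on P0 Notch1+ arrays and 120 to 137 on P0 Retina arrays. The part of this limit in the sums was not tested.

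**Figure D3:**
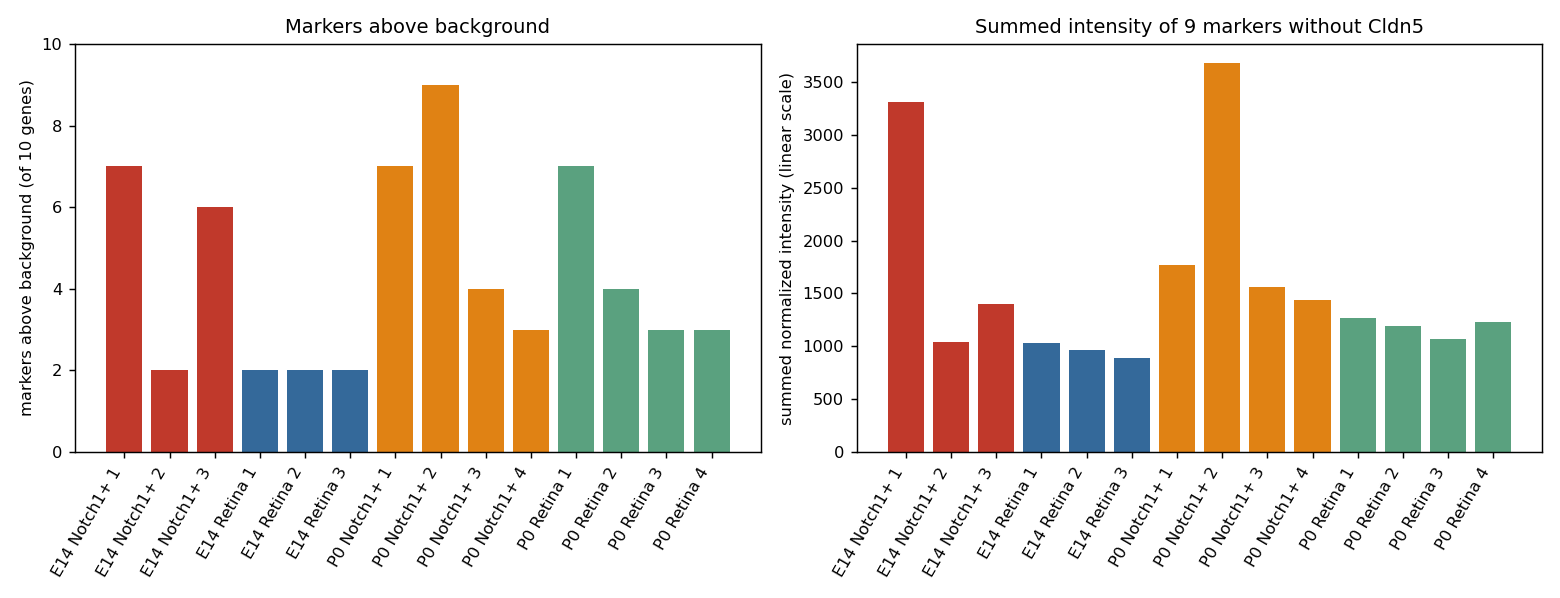
Left, number of the 10 markers above background on each array; right, summed normalized intensity of the 9 markers without Cldn5 on each array (linear scale, bars from 0), coloured by group. E14 Notch1+ 1 (3313) and P0 Notch1+ 2 (3675) stood above all other arrays in the sum.

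On E14 Notch1+ replicate 1, Cdh5 was 4.92 times, Pecam1 3.90 times, Esam 3.32 times and Emcn 2.87 times the mean of the other E14 Notch1+ arrays, while Cldn5 was 1.37 times and Kdr 1.13 times that mean. On P0 Notch1+ replicate 2, Esam was 5.18 times, Cdh5 3.99 times, Emcn 2.93 times and Pecam1 1.90 times the mean of the other P0 Notch1+ arrays, while Cldn5 was 1.34 times and Kdr 1.18 times. The same arrays were the lowest of their groups for Notch1 (21070 and 16413). The file headers hold a re-dip mark, and the sources used here do not describe its procedure. It was present on E14 Notch1+ 1 and 3, on P0 Notch1+ 2 and on all 7 Retina arrays. It was absent from E14 Notch1+ 2 and P0 Notch1+ 1, 3 and 4. With this mark as a covariate, which sets marked Notch1+ arrays against Retina, Cdh5, Emcn and Esam were called higher at E14 (log2 2.10, 1.87 and 2.14). Of all 13683 tested probes 370 were called higher there. At P0 6 markers were called, where 521 of 13683 tested probes were called higher. The mark was fitted as 1 term for all groups, so its size came from Notch1+ arrays of both stages. Only 1 P0 Notch1+ array, replicate 2, carried the mark, so the P0 values of this fit rest in large part on that array. The part of the mark in these values was not tested beyond that.

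Over the 14 arrays, the markers fell into different company. Cdh5, Emcn and Esam correlated with each other at Pearson's r of 0.95 to 0.97 on log2 values, and Flt1 followed them (0.90 to 0.94). Pecam1 and Tie1 were closest to each other (0.93). Cldn5 correlated with Cdh5, Emcn and Esam at 0.29 to 0.35, and Kdr at 0.01 to 0.09. These are descriptions over arrays that share groups, scan days and array background.
Likeness was ranked among tested probes with exactly 1 gene symbol, without other probes of the same gene. The 5 most like Cdh5 were Emp1, Emcn, Esam, Igfbp3 and Gja4 (r 0.94 to 0.98), Gja4 being a gap junction gene of arterial endothelium. The 5 most like Emcn were Cdh5, Vwf, Cd34, Esam and Mmrn2 (0.95 to 0.97), and for Esam they were Emcn, Cdh5, Cd34, Vwf and Pdgfb. For Flt1 they were Emcn, Cdh5, Esam, Cd34 and Fxyd5. The nearest probes of Pecam1, Tie1 and Cldn5 held fewer known vessel genes: Tie1, Ecm1, Chkb, Cog8 and Sec61a2 for Pecam1, Pecam1, Chkb, Unk, Tmem250-ps and Crtc2 for Tie1, and Gm26553, Fam183b, Cd72, Smox and Tmprss5 for Cldn5.

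Of 23 other endothelial genes 20 had a probe and 10 were tested. Their summed intensity was 8711, 7865 and 8828 on E14 Notch1+ arrays, against 2938, 3064 and 5324 on E14 Retina arrays, and 4422, 11230, 6867 and 3978 on P0 Notch1+ arrays, against 5976, 5487, 5537 and 4042 on P0 Retina arrays. The E14 Notch1+ arrays were close to each other in this sum, and only P0 Notch1+ replicates 2 and 3 were above all P0 Retina arrays. Slc2a1, a glucose transporter that many cell types carry, made up much of it on E14 Notch1+ replicates 2 and 3 (5894 and 5534). On replicate 1 it read only 1203, so the closeness of the E14 Notch1+ sums rested on this gene. The median log2 value of the list was 7.75, 6.60 and 7.01 on E14 Notch1+ arrays, against 6.39, 6.37 and 6.15 on E14 Retina arrays, and so was highest on replicate 1. Of the 10 tested genes 0 were called at E14, against 2.67% of all tested probes higher and 3.24% lower. In P0 Notch1+ cells 3 were called higher (Cd93, Mmrn2 and Aplnr) and 0 lower, against 8.97% and 10.7% of all tested probes. Their median log2 fold change was 0.88 at E14 and 0.65 at P0, beside 0.01 at both stages over all tested probes. Cd93, a C-type lectin-like receptor of endothelium, read 768, 146 and 360 in E14 Notch1+ cells, against 91.0, 87.1 and 71.3 in E14 Retina, and 408, 1732, 481 and 185 in P0 Notch1+ cells, against 178, 93.8, 83.6 and 137 in P0 Retina (P0 log2 2.09, SE 0.59, adjusted p = 0.0233). Mmrn2, an endothelial matrix protein, had a P0 log2 difference of 1.77 (SE 0.54, adjusted p = 0.0353).
Aplnr, the apelin receptor of sprouting and venous endothelium, read 259, 278, 360 and 160 in P0 Notch1+ cells, against 124, 115, 82.7 and 94.5 in P0 Retina (1.31, SE 0.26, adjusted p = 0.00304), and all 4 Notch1+ arrays lay above all 4 Retina arrays. Between stages it was lower in E14 Notch1+ cells than at P0, at least 1.74-fold as a bound (-1.24, SE 0.28, adjusted p = 0.0131). Cd93, Mmrn2 and Cd34 were highest on E14 Notch1+ replicate 1 and P0 Notch1+ replicate 2 within their groups. Cd34, a sialomucin of endothelium and blood progenitors that was not called, read 2756, 190 and 538 in E14 Notch1+ cells, against 131, 115 and 95.0 in E14 Retina, and 700, 3333, 742 and 277 in P0 Notch1+ cells, against 235, 232, 109 and 212 in P0 Retina.

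**Figure D4:**
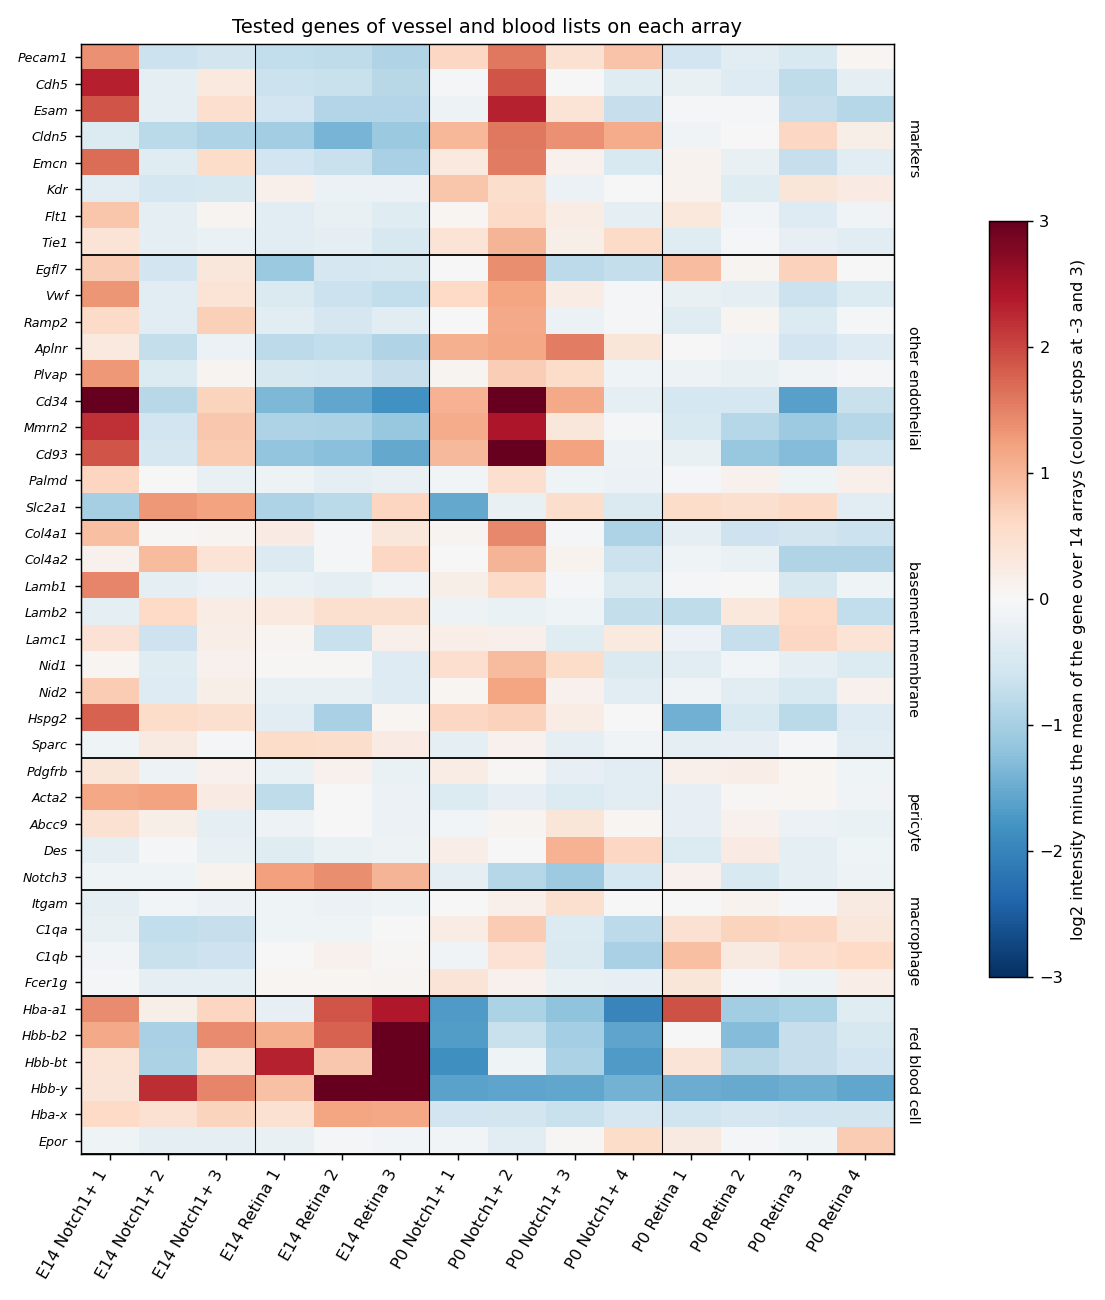
Log2 intensity minus the gene's mean over 14 arrays (colour, from -3 in blue to 3 in red) for the tested genes of 6 lists (rows) on each array (columns). The columns E14 Notch1+ 1 and P0 Notch1+ 2 are red for most endothelial genes (not for Slc2a1, nor for Cldn5 and Kdr at E14), and the red blood cell rows are red mainly in E14 columns.

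Of 16 endothelial transcription factors with a probe, 3 were tested (Ets2, Lmo2 and Foxq1), and the others were above background on fewer than 3 arrays. Foxq1, a forkhead factor used in brain endothelium, read 248, 187 and 241 in E14 Notch1+ cells, against 88.1, 97.7 and 105 in E14 Retina, and no Retina array was above background at either stage. It reached the test through Notch1+ arrays alone, so its entry was tied to the group in which it was high. It was called higher in Notch1+ cells at E14 (at least 1.66-fold as a bound, log2 1.21, SE 0.25, adjusted p = 0.0105) and at P0 (at least 1.03-fold, log2 0.66, SE 0.21, adjusted p = 0.0448). Lmo2, a LIM adaptor of blood and endothelial progenitors, was higher in E14 Retina than in P0 Retina (at least 1.83-fold as a bound, log2 0.96, SE 0.26, adjusted p = 0.0235).

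Among angiogenic ligands 5 of 16 were tested. In P0 Notch1+ cells 2 were lower and 0 higher, against 10.7% and 8.97% of all tested probes. Vegfa, the main vessel growth signal, read 562, 444, 314 and 290 in P0 Notch1+ cells, against 803, 543, 685 and 871 in P0 Retina (log2 -0.88, SE 0.28, adjusted p = 0.0424), and was lower in E14 Retina than in P0 Retina (-1.15, SE 0.30, adjusted p = 0.0228). Angpt2, a Tek ligand, was above background on 0 P0 Notch1+ arrays and all 4 P0 Retina arrays (at least 1.06-fold lower as a bound, log2 -0.41, SE 0.13, adjusted p = 0.0347).

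Receptors and Notch genes of vessel growth, many of them also used by neural cells, were tested for 13 of 16 genes with a probe. At E14 1 was lower and 0 higher in Notch1+ cells, against 3.24% and 2.67% of all tested probes. Nrp1, a semaphorin and VEGF co-receptor, read 113, 138 and 226 in E14 Notch1+ cells, against 1089, 1260 and 1012 in E14 Retina (log2 -2.87, SE 0.34, adjusted p = 0.00044), and its E14 effect was lower than its P0 effect (-2.93, SE 0.45, adjusted p = 0.00719). At P0 1 was higher and 1 lower, against 8.97% and 10.7% of all tested probes. Dll4, a Notch ligand of sprouting tip cells and of differentiating retinal neurons, was higher there (1.73, SE 0.45, adjusted p = 0.0156) and Hey2 lower (-0.85, SE 0.14, adjusted p = 0.000756). Between stages, E14 over P0, Notch1+ cells had 3 of the 13 higher and 2 lower, against 5.17% and 5.92% of all tested probes. Retina had 2 higher and 1 lower, against 6.61% and 7.67%. Unc5b, a netrin receptor of tip cells, was higher in E14 Notch1+ than in P0 Notch1+ cells (1.59, SE 0.38, adjusted p = 0.0183), with its highest E14 value, 1930, on replicate 1, against 855 and 867 on the other E14 Notch1+ arrays.

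Pericytes and smooth muscle cells wrap vessels from the outside. Of 12 pericyte and smooth muscle genes 5 were tested. At E14 Acta2, smooth muscle actin, was higher in Notch1+ cells (log2 1.17, SE 0.25, adjusted p = 0.0154) and Notch3, a receptor of mural cells and retinal progenitors, was lower (-1.27, SE 0.22, adjusted p = 0.00475). At P0 0 of 5 were called. Of all tested probes 2.67% were called higher and 3.24% lower at E14, and 8.97% and 10.7% at P0. The summed intensity of the list was 2406 to 2880 on E14 Notch1+ arrays, against 3038 to 3665 on E14 Retina arrays, and 2005 to 2243 on P0 Notch1+ arrays, against 2116 to 2346 on P0 Retina arrays.
The summed intensity of 10 basement membrane genes was 5711, 3419 and 3333 on E14 Notch1+ arrays, against 2641, 2306 and 3088 on E14 Retina arrays, and 3322, 4556, 2875 and 2310 on P0 Notch1+ arrays, against 1842, 2245, 2306 and 2168 on P0 Retina arrays, highest on E14 Notch1+ replicate 1 and P0 Notch1+ replicate 2. Of these genes 9 were tested, and 1, Hspg2, the perlecan gene, was called higher at P0 (1.15, SE 0.33, adjusted p = 0.0248), against 8.97% of all tested probes. Hspg2 read 3168, 1342 and 1288 in E14 Notch1+ cells, against 733, 473 and 953 in E14 Retina, with its highest value on replicate 1. It thus made up much of the E14 Notch1+ sums. The median log2 value of the list was 8.13, 7.50 and 7.82 on E14 Notch1+ arrays, against 7.74, 7.59 and 7.86 on E14 Retina arrays, which overlapped. Col4a1, a collagen of vessel walls, read 311, 798, 279 and 153 in P0 Notch1+ cells, against 239, 189, 200 and 187 in P0 Retina, with its highest value on replicate 2.

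Blood cell and other markers were counted for the same arrays. Of 11 macrophage and microglia genes, 0 were above background on E14 Notch1+ arrays, against 3 on each E14 Retina array, and 0 to 4 on P0 Notch1+ arrays, against 2 to 8 on P0 Retina arrays. Their summed intensity was 941 to 1188 on E14 Notch1+ arrays, against 1256 to 1303 on E14 Retina arrays, and 901 to 1455 on P0 Notch1+ arrays, against 1423 to 1757 on P0 Retina arrays. C1qb, a complement gene of microglia, was lower in P0 Notch1+ cells (log2 -0.84, SE 0.26, adjusted p = 0.0333).
For 10 red blood cell genes the sum was 2216 to 2981 on E14 Notch1+ arrays, against 3128 to 9998 on E14 Retina arrays, and 881 to 1221 on P0 Notch1+ arrays, against 1082 to 2974 on P0 Retina arrays. No globin gene was called between Notch1+ cells and Retina at either stage. Hbb-y, the embryonic beta-like globin, was above background on 5 of 6 E14 arrays and 0 of 8 P0 arrays, so it reached the test through E14 arrays alone. As bounds it was at least 3.20-fold higher in E14 Notch1+ cells than in P0 Notch1+ cells (2.90, SE 0.55, adjusted p = 0.00563) and at least 9.09-fold higher in E14 Retina than in P0 Retina (4.23, SE 0.55, adjusted p = 0.000276).
Of 10 mesenchyme genes 3 were tested. Fbln1 was higher (1.65, SE 0.31, adjusted p = 0.00237) and Pdgfra, which also marks retinal astrocyte precursors, lower (-1.18, SE 0.19, adjusted p = 0.000851) in P0 Notch1+ cells than in P0 Retina. Of 7 astrocyte genes 4 were tested and 0 were called in any comparison, against 0.95% to 10.7% of all tested probes per comparison and direction. The part of these other cells in the marker values was not tested.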

How the data were processed

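RNA of 14 retinal samples was amplified, labelled as biotin cRNA and hybridised to MEEBO oligonucleotide arrays (1 colour). The deposited files hold, per the file headers, scanner intensity per spot from GenePix, not normalized. The authors subtracted local background, normalized and deposited a table of log2 values, used here only as an alternative, whose exact scaling is not given in the sources used here. Spots flagged bad were removed, background was corrected by normexp (offset 50), arrays were quantile normalized, and 13683 probes were fitted in 1 limma model (3.58.1, R 4.3.3) of 4 group means with Benjamini-Hochberg adjustment. The array number limits precision. Each gene was represented by its probe in the study's tables, or else by its brightest. Of the 34312 mouse probes 10634 received no gene symbol. All 10 markers were named, and from each other list up to 3 called genes with the largest fold change per comparison. Where none was called, up to 3 genes with the highest mean were allowed. Values of Cd34, Slc2a1 and Col4a1 were given without a call. Markers and lists were chosen with earlier results of these data known. The script was tested on simulated data. The samples are described as independent biological replicates. The probes most like Kdr are not reported here.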

Additional observations from a re-analysis of the deposited data

Results flagged for a closer look

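In groups of 4 arrays, the highest and the lowest value of each marker probe were set against the gap to the nearest other array, and 3 of 28 groups had an array past Dixon's 95% critical value. Chance alone marks about 1 in 20 groups, and these probes are not independent. All 3 concerned P0 Notch1+ replicate 2. Cdh5 read 564 there, with 154 as the next P0 Notch1+ value. Esam read 958, with 258 next. The second Pecam1 probe, mMR029426, read 678, with 147 next. Groups of 3 arrays were not examined in this way, so E14 Notch1+ replicate 1 was not covered.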

How the results depend on the processing

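Over the alternatives, the 40 log2 fold changes of the 8 tested markers were recomputed 1051 times: 994 values kept their direction and their side of the threshold, 16 became called, 19 lost their call and 22 changed sign. None of the 22 was called, before or after. Kdr at P0 was -0.22 with each array scaled to 1 median. Of the stage differences in Notch1+ cells, E14 over P0, which were above 0 as reported, those of Cdh5, Emcn and Esam turned to -0.37, -0.29 and -0.36 without E14 Notch1+ replicate 1, and to -0.35, -0.40 and -0.60 with the re-dip mark (Flt1 -0.22). Without P0 Notch1+ replicate 4 Flt1, Emcn and Esam were -0.0786, -0.0423 and -0.15, and with replicate number as a block Flt1 and Esam were -0.0151 and -0.0295. Flt1 was also -0.0919 with a common 75th percentile and -0.12 from the authors' value table. With each array left out in turn, this stage difference ran from -0.37 to 0.93 for Cdh5, -0.0786 to 0.32 for Flt1, -0.29 to 0.73 for Emcn and -0.36 to 0.86 for Esam. The difference of the E14 and P0 effects ran from -0.99 to 0.0161 for Pecam1 (above 0 only without E14 Notch1+ replicate 2), -0.0752 to 1.23 for Cdh5 and -0.000427 to 1.22 for Esam (both below 0 only without E14 Notch1+ replicate 1). It was 0.0393 for Pecam1 with 1 median and 0.00625 from the authors' table, and -0.0543 for Cdh5 and -0.24 for Esam with the re-dip mark. At E14, Notch1+ over Retina, 2 markers were called higher from the authors' value table (Cdh5 and Emcn), 3 with a term for the re-dip mark, and 1 was lower by the methods' t-test without adjustment (Kdr). Of all 13683 tested probes 458 were higher from the authors' table, 370 higher with the re-dip mark and 1266 lower by that t-test. At P0, where 3 were called higher, 1 was called with 1 median or from the authors' table (Tie1 both times), and 6 with the re-dip mark. Leaving out each array in turn gave 1 to 3, with only Cldn5 called without P0 Notch1+ replicate 1, 2 or 4. Between stages, where only Cldn5 was lower in E14 Notch1+ cells, 2 were called with the re-dip mark or by the unadjusted t-test, and 1 to 3 when each array was left out: Pecam1 and Tie1 were added without E14 Notch1+ replicate 1, and Kdr without P0 Notch1+ replicate 3. Of all tested probes 545 were lower there with the re-dip mark, 485 without E14 Notch1+ replicate 1 and 684 without P0 Notch1+ replicate 3. Removing E14 Notch1+ replicate 1 and P0 Notch1+ replicate 2 together, a setting chosen after seeing the data, gave 2 lower there (Pecam1 and Cldn5), beside 418 of all tested probes. In Retina 2 were lower by the unadjusted t-test (Pecam1 and Cldn5), which gave 1903 of 13683 tested probes lower there and 1553 in Notch1+ cells. The cause was not tested, except that arrays left out also remove probes from the test. Replicate number as a block left 2 markers called at P0 (Tie1 and Cldn5). It moved no other count of called markers. Pairing by replicate number was not seen: deviations of same-numbered Notch1+ and Retina arrays correlated at -0.06 to 0.08, and 2 of 7 Notch1+ arrays correlated best with the Retina array of their own number. Pairs of samples under unlike numbers could not be checked in this way. Scaling to 1 median moved the median of all probes by -0.14 (E14) and -0.37 (P0), and with it 320 probes were called higher and 3778 lower at P0, against 1227 and 1467 in the values reported. From the authors' table these were 780 and 2273, and with a common 75th percentile 1070 and 2046. The t-test and the fit of compared groups alone could not give the difference of differences. Most markers lay near background, and the lowest intensity above background was 120 to 152, so differences below it were not measurable.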
